A study of Mus musculus with 14 samples.

Results

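The genes described here encode the subunits of voltage-gated calcium channels and voltage-gated sodium channels. They were taken by symbol: every gene starting with Cacna, Cacnb or Cacng, or with Scn and a digit, that a probe of the array named through its RefSeq transcript. This gave 38 of the 20883 named genes, 26 for calcium channels and 12 for sodium channels, each read by its brightest probe. The rule itself used no measured difference, but it was set with earlier results of these data known. The prefixes also take in Cacng genes whose products serve another receptor, described in their place.

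RNA from the medial prefrontal cortex (mPFC) of 14 wild-type C57BL/6 mice was measured on 1-colour arrays, 1 mouse per array. The naive group (n = 5) was moved between cages, and the other 9 mice went through repeated social defeat, in which a mouse is repeatedly attacked by a dominant one. The labels class the defeated mice by behaviour as susceptible (n = 6) or resilient (n = 3). All mice were perfused 4 h after the last session and the tissue was taken with a 1.5 mm punch. The series states 2 independent experiments with different mice, and the experiment of each mouse was not given in the sources used here. Values below are levels, the log2 signal minus the 75th percentile of log2 signal on that array, and each difference is between such levels.

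A voltage-gated calcium channel is built on a pore-forming alpha1 subunit that opens on depolarisation. P/Q, N and R type pores carry the calcium that triggers transmitter release at nerve terminals, L type pores couple activity to gene expression, and T type pores open near rest and support bursts. Alpha2delta and beta subunits bring the pore to the membrane and tune its gating. Voltage-gated sodium channels start and carry the action potential, and their pores gather with beta subunits at the axon initial segment.

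All defeated mice together, each class weighted equally, had higher levels of 3 of the 34 tested channel genes than naive mice. These were Cacnb2, Cacna1e and Cacna1b, at adjusted p under 0.05 (limma, Benjamini-Hochberg over 14441 genes), and 0 were lower. Cacna1e and Cacna1b cleared background on 4 of 5 naive and all 9 defeated arrays, and so entered the test only through the defeated groups. When genes were tested without this background filter, 0 channel genes were called. With the filter, 7.44% of all genes tested were called in all defeated against naive, 4.18% higher and 3.27% lower, against 8.82% of the channel genes. Susceptible against naive gave 0 calls among the channel genes and resilient against naive 0, where 2.28% and 0.138% of all genes were called. The unadjusted p was under 0.05 for 10 and 4 channel genes, and for 23.4% and 19.6% of all genes. Susceptible against resilient gave 0 calls and 0 channel genes at unadjusted p under 0.05, where 0% of all genes were called and 0.720% had an unadjusted p under 0.05.

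The arrays lay on 3 slides, and slide changed the count of calls. With slide as a block in the same limma fit, 10 channel genes were called in susceptible against naive, 29.4% of those tested, where 15.2% of all genes were called. Of these, 7 were higher and 3 lower, where 9.05% of all genes were higher and 6.12% lower. Resilient against naive then gave 1 call, higher, where 3.95% of all genes were called and 2.42% were called higher. All defeated against naive gave 7 calls (20.6%) where all genes gave 20.2%, with 6 higher and 1 lower where all genes gave 12.8% and 7.42%. Susceptible against resilient stayed at 0, with 1 channel gene at unadjusted p under 0.05 and 2.03% of all genes. The comparisons with naive mice share the same 5 naive arrays.

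Features of the arrays moved with the groups. Every naive array lay in the first row of its slide and every defeated array in the second, so row and defeat cannot be told apart. On slides 1 and 2 the 3 naive arrays were dimmer, with a log2 75th percentile from 7.14 to 7.26 against 7.56 to 8.04 for the 7 defeated arrays. On slide 3, scanned on another day and without resilient mice, the naive values were 8.39 and 8.50 and the susceptible values 9.08 and 8.49. The share of spots well above background ran from 48.0% to 65.4%, lowest on naive mouse 3. That array also had the lowest correlation with the rest of its group, 0.983 against 0.986 to 0.995 for the others. The part of brightness and of this array in the results was not tested beyond the values without it given below.

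The 6 neuronal, 5 cortical excitatory and 6 inhibitory markers listed were above background on all 14 arrays. So were 7 of the 8 striatal, all 6 oligodendrocyte and all 5 microglial markers, so these lists do not set the borders of the punch. Levels of several sets of cell markers shifted with the groups. The summed linear level of 8 astrocyte markers was 690.5 to 884.5 in naive, 495.8 to 623 in susceptible and 497.7 to 579.5 in resilient mice. All 8 had negative differences in all defeated against naive, and Aldoc and S100b were called lower there. The 6 meningeal fibroblast markers also all had negative differences, with a median of -1.11 and 0 called, and summed to 14.5 to 33.4 in naive, 5.84 to 25.1 in susceptible and 6.95 to 26.6 in resilient mice. The 5 tested endothelial markers were all negative as well, with a median of -0.69, and Slco1a4 was called lower. The 6 endothelial markers summed to 18.4 to 27.7 in naive, 11.7 to 18.1 in susceptible and 10.6 to 23.9 in resilient mice. Of the microglial markers Aif1 was called lower, and of the striatal markers Adora2a. The 6 inhibitory markers summed to 66.2 to 84.7 in naive, 86.4 to 106 in susceptible and 77.7 to 118 in resilient mice, with 0 called. All 6 neuronal markers had positive differences in all defeated against naive, with a median of 0.22 and 0 called. They summed to 403.5 to 451.5 in naive, 370.5 to 517.6 in susceptible and 471.4 to 496.8 in resilient mice. Of the 5 cortical excitatory markers 2 were positive, with a median of -0.27 and 0 called. Their sums were 63.0 to 103.5, 49.6 to 82.0 and 57.1 to 67.0 in these groups. In tissue RNA, fewer cells of a type and less RNA per cell cannot be told apart, and the part of these shifts in the channel results was not tested.

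The sequence in front of the start sites is shown for the 3 channel genes called in all defeated against naive and for Cacna2d3, the channel gene with the smallest adjusted p when slide was a block. They were chosen after the values were seen. Each is the 250 bases before a RefSeq start site in GRCm38.p6, written 5′ to 3′ on the strand of the gene. Capitals mark the GC box GGGCGG and the cAMP response element core TGACG, on either strand, so CCGCCC and CGTCA count too. Cacnb2 has 2 start sites in the table, and the arrays do not say which was used.
Cacna1e, chr1:154725921-154726170, minus strand: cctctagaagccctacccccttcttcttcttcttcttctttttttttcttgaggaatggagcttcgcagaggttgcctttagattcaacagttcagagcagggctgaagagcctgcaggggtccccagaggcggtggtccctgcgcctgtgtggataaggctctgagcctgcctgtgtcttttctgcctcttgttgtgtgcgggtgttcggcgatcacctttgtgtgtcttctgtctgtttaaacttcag
Cacnb2 upstream start, chr2:14604056-14604305, plus strand: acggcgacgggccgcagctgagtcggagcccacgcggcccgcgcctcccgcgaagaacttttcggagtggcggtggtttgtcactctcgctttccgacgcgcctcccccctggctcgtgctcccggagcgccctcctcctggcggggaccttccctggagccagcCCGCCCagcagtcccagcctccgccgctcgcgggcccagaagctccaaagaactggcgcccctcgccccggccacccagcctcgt
Cacnb2 downstream start, chr2:14823842-14824091, plus strand: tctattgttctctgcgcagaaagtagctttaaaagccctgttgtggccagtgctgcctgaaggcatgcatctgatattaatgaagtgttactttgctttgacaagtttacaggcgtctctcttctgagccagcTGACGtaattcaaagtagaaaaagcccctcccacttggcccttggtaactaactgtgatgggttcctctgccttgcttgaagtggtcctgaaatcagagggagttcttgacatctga
Cacna1b, chr2:24763153-24763402, minus strand: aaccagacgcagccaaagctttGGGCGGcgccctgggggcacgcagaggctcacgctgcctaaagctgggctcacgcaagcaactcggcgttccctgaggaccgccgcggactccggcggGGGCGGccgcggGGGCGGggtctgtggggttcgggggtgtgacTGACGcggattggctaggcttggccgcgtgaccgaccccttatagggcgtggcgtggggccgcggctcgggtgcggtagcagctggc
Cacna2d3, chr14:29721865-29722114, minus strand: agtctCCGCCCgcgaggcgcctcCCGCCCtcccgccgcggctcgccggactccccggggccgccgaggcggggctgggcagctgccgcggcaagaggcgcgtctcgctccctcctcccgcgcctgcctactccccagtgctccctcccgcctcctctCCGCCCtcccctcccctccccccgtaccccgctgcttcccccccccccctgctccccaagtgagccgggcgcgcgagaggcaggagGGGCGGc

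These windows differ in composition. The Cacna1e window was 52% G and C and held neither motif, and the Cacnb2 downstream window was 46% G and C with 1 core motif. The Cacnb2 upstream window (73.2%) held 1 GC box, the Cacna1b window (72%) held 3 GC boxes and 1 core motif, and the Cacna2d3 window (80%) held 4 GC boxes. Of all 32851 windows of this length, 32.7% held a GC box and 17.8% a core motif. Of the 40 windows of the 29 channel genes in the table, 15 (37.5%) and 6 (15%) did. TTCAGCACC, the left part of the element bound by the neuronal repressor REST, was in 0.301% of all windows and in 0 of these 40.

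Among the P/Q, N and R type pores, the N and R type genes were called higher in all defeated against naive. Both had entered the test only through the defeated groups. Cacna1e, the R type pore, had levels of -2.17, -2.40, -2.72, -2.71 and -2.16 in naive mice. Susceptible mice ran from -2.43 to -1.21 with a median of -1.70, and resilient mice were at -1.30, -1.42 and -1.96. All 3 resilient mice and 5 of 6 susceptible mice lay above every naive mouse. The difference in all defeated against naive was 0.78 ± 0.20 (SE), 1.71-fold, with an adjusted p of 0.0379.

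Within slides 1, 2 and 3 the difference in mean Cacna1e level between defeated and naive mice was 0.69, 0.97 and 0.19. The probe of naive mouse 3 was not well above background, and without that mouse the fitted difference was 0.70 with an adjusted p of 0.0942. Against naive mice, susceptible mice differed by 0.68 ± 0.22 (adjusted p = 0.0935) and resilient mice by 0.87 ± 0.26 (adjusted p = 0.116). With slide as a block the first of these was called, at 0.63 ± 0.19 (adjusted p = 0.0434).

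Cacna1b, the N type pore, had naive levels of -2.51, -2.81, -2.99, -3.39 and -2.69, the third of them not well above background. In susceptible mice the levels ran from -2.65 to -1.92 with a median of -2.27, and resilient mice were at -2.53, -2.00 and -2.18. The groups overlapped at the lower end of the defeated mice. The difference in all defeated against naive was 0.62 ± 0.17, 1.54-fold, with an adjusted p of 0.0387, and it was 0.60 without naive mouse 3 (adjusted p = 0.0887). Within slides 1, 2 and 3 it was 0.21, 0.86 and 0.52.

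Cacna1a, the P/Q type pore and the gene of this role with the brightest probe, lay the other way. Naive levels were 2.05, 1.95, 2.67, 1.79 and 1.91, with the highest in naive mouse 3. The susceptible mice lay between 1.39 and 1.94 with a median of 1.70, and resilient mice were at 1.67, 1.97 and 1.93. Susceptible mice differed from naive mice by -0.38 ± 0.15 (adjusted p = 0.152). With slide as a block Cacna1a fell by 0.38 ± 0.12 (adjusted p = 0.0483), and within every slide all susceptible mice lay below all naive mice. Without naive mouse 3 the difference in the fit without the block was -0.23 (adjusted p = 0.305), and leaving out 1 mouse at a time kept the blocked call in 1 of 14 fits. A dimmer probe of Cacna1a differed by -0.33 in all defeated against naive, beside -0.30 for the brightest.

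**Figure D1:**
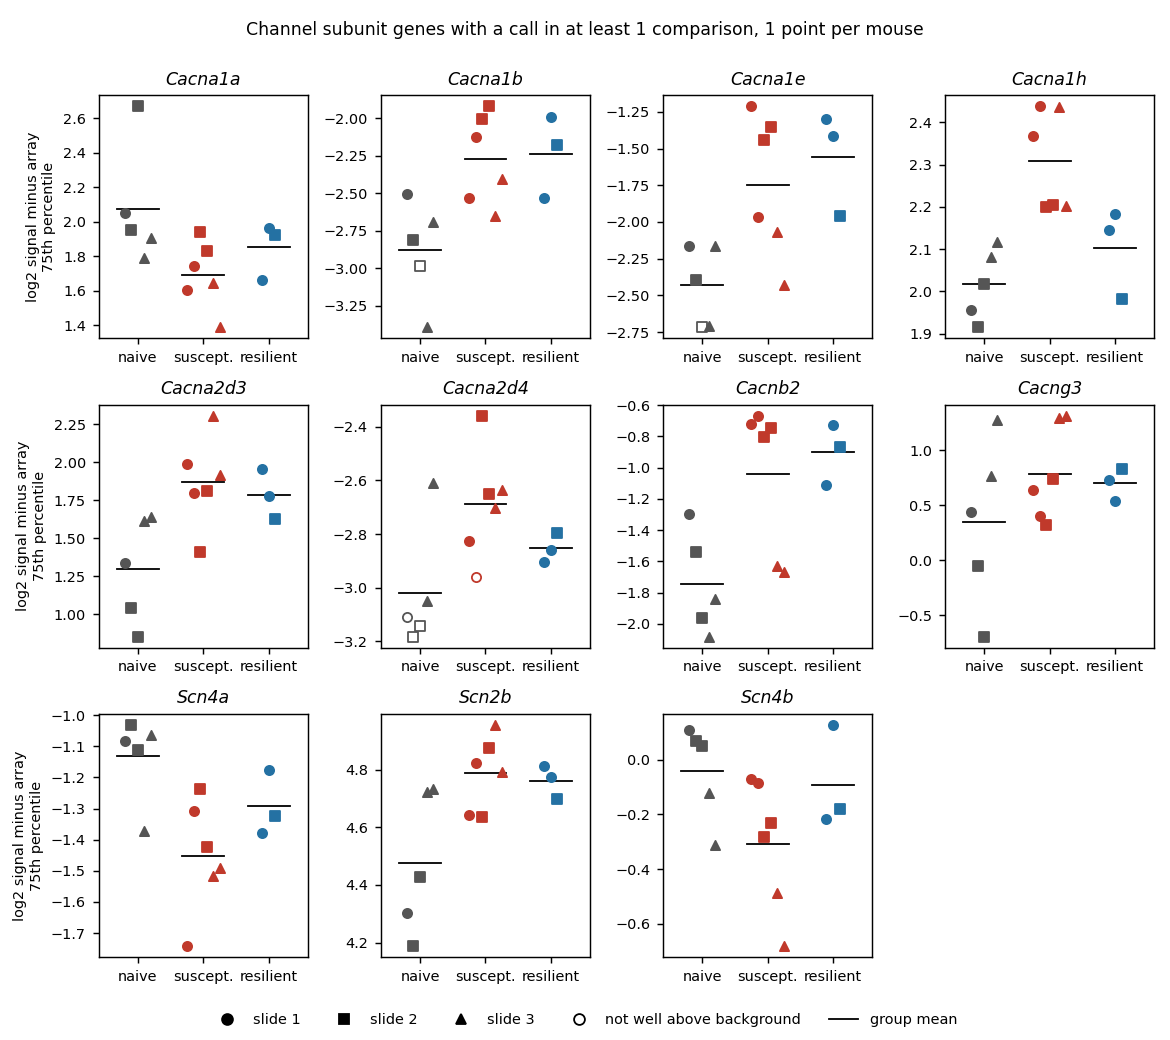
Levels (log2 signal minus the array's 75th percentile) of the 11 channel genes called in at least 1 comparison, with or without slide as a block; each point is 1 mouse, the shape gives the slide, open points were not well above background, and lines are group means. Cacnb2 of the susceptible mice on slide 3 lay at -1.63 and -1.67, beside naive values of -2.08 and -1.84 on that slide, while the other 4 susceptible mice lay between -0.80 and -0.67.

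L type pores gave 0 calls in any comparison. Cacna1s, known for its part in skeletal muscle contraction, had naive levels of -1.53, -1.06, -0.73, -1.31 and -1.32, and the brightest probe of this role. Susceptible mice ran from -1.59 to -1.11 with a median of -1.19 and resilient mice were at -1.31, -1.13 and -1.20, inside the naive range apart from 1 susceptible mouse. Cacna1c, a main L type pore of brain and heart, differed by 0.35 (95% interval -0.01 to 0.70) in all defeated against naive, and only 11 of 14 arrays were above background. Cacna1d, the other brain L type pore, differed by 0.16 (-0.09 to 0.40) by its brightest probe. Its second probe, above background on all 14 arrays, differed by 0.41 ± 0.13 (limma over all probes, adjusted p = 0.0539). In resilient against naive that probe differed by 0.56 ± 0.16 (adjusted p = 0.0970). Cacna1f, known from the retina, was above background on 0 of 14 arrays and was not tested.

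Of the T type pores, Cacna1h was higher in susceptible mice when slide was a block. Naive levels were 1.96, 1.92, 2.02, 2.08 and 2.12. In susceptible mice the levels ran from 2.20 to 2.44 with a median of 2.29, and resilient mice were at 2.15, 2.18 and 1.98. Every susceptible mouse lay above every naive and every resilient mouse. Cacna1h was the 1 channel gene of 34 whose susceptible and naive levels did not overlap, where 3.82% of all genes had no overlap. It was also the 1 whose susceptible and resilient levels did not, where 0.561% of all genes had none.

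The Cacna1h difference in susceptible against naive was 0.29 ± 0.09 (adjusted p = 0.0776), and 0.28 ± 0.07 with slide as a block (adjusted p = 0.0276). Within slides 1, 2 and 3 it was 0.45, 0.24 and 0.22. Susceptible against resilient differed by 0.21 (-0.01 to 0.42), with an unadjusted p of 0.0600 and an adjusted p of 0.9999. The second Cacna1h probe, above background on all 14 arrays, differed by 0.01 ± 0.14 in susceptible against naive. In susceptible against resilient it differed by -0.20 ± 0.16, opposite in sign to the brightest probe. Cacna1g, a T type pore prominent in thalamus, differed by -0.06 (-0.36 to 0.24) in susceptible against naive by its brightest probe. Its second probe, above background on all 14 arrays, differed by 0.32 ± 0.20 there (limma over all probes, adjusted p = 0.347). With slide as a block that probe was called higher, at 0.36 ± 0.11 (adjusted p = 0.0456). In all defeated against naive it was also called with the block, at 0.42 ± 0.11 (adjusted p = 0.0218).

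Cacna1i had the brightest probe of the T type pores, with naive levels of 2.09, 1.89, 2.59, 2.18 and 2.33. The susceptible mice lay between 2.13 and 2.52 with a median of 2.31 and resilient mice were at 2.46, 2.18 and 2.36, all inside the naive range. Its second probe went another way and is described with the probes below.

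Alpha2delta subunits, extracellular partners that carry the gabapentin site in Cacna2d1 and Cacna2d2, held the channel gene called in the most comparisons when slide was a block. Cacna2d3 had naive levels of 1.34, 1.04, 0.85, 1.61 and 1.64. Susceptible mice ran from 1.41 to 2.31 with a median of 1.86, and resilient mice were at 1.95, 1.78 and 1.63. All defeated against naive differed by 0.53 ± 0.16 (adjusted p = 0.0544), and the groups overlapped over all arrays.

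Within every slide each defeated mouse lay above each naive mouse for Cacna2d3, with mean differences of 0.54, 0.67 and 0.49. In either direction, 6 of the 34 channel genes (17.6%) separated defeated from naive mice within every slide. The share of all genes is not given for this comparison, so the count cannot be read as particular to channel genes. For susceptible against naive mice, a different comparison, the share of all genes was 17.1%. With slide as a block Cacna2d3 was called in all 3 comparisons with naive mice. It rose by 0.57 ± 0.10 in susceptible (adjusted p = 0.00952), by 0.58 ± 0.13 in resilient (adjusted p = 0.0382) and by 0.57 ± 0.10 in all defeated mice (adjusted p = 0.00644). In this blocked fit, leaving out any 1 mouse kept the first and the last of these calls, with adjusted p up to 0.0329 and 0.0324, while the resilient call held in 5 of 14 fits with an adjusted p up to 0.235.

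Cacna2d4 levels were close to background, which 4 arrays did not clear. Naive levels were -3.11, -3.18, -3.14, -3.05 and -2.61, susceptible mice ran from -2.96 to -2.36 with a median of -2.68, and resilient mice were at -2.91, -2.86 and -2.79. It was called in susceptible against naive with slide as a block, at 0.36 ± 0.11 (adjusted p = 0.0458). Cacna2d4 entered the test only through the resilient group, whose arrays all cleared background. Cacna2d1, with the brightest probe of this role, differed by 0.02 (-0.23 to 0.27) in all defeated against naive and Cacna2d2 by 0.19 (-0.23 to 0.61).

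Cacnb2, a beta subunit that binds the pore from inside the cell, gave the lowest adjusted p of the channel genes in all defeated against naive. Naive levels were -1.29, -1.54, -1.96, -2.08 and -1.84. In susceptible mice the levels ran from -1.67 to -0.67 with a median of -0.77, and resilient mice were at -1.11, -0.73 and -0.87. Each resilient mouse and 4 of 6 susceptible mice lay above every naive mouse. The 2 susceptible mice of slide 3 lay inside the naive range, above both naive mice of that slide.

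The Cacnb2 difference in all defeated against naive was 0.77 ± 0.20, 1.71-fold (adjusted p = 0.0354), and within slides 1, 2 and 3 it was 0.49, 0.95 and 0.31. Without naive mouse 3 it was 0.72 (adjusted p = 0.0886). With slide as a block it was 0.59 ± 0.13 (adjusted p = 0.0124), and Cacnb2 also rose by 0.64 ± 0.13 in susceptible against naive (adjusted p = 0.0132). Resilient against naive differed by 0.84 ± 0.26 (adjusted p = 0.117).

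The other beta subunits were not called. Cacnb3, with the brightest probe of the role, had naive levels of 3.83, 3.83, 3.95, 4.04 and 4.32 and resilient levels of 3.50, 3.74 and 3.76, all below the naive range. The susceptible mice lay between 3.53 and 4.24 with a median of 3.89 and overlapped both groups. Resilient against naive differed by -0.33 (-0.66 to 0.01). Cacnb3 was 1 of 3 channel genes whose resilient and naive levels did not overlap, with Cacna1e and Cacnb2, where 14.1% of all genes had no overlap. Cacnb4 differed by 0.31 (-0.03 to 0.65) and Cacnb1 by 0.06 (-0.43 to 0.55) in all defeated against naive.

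Most Cacng genes encode TARPs, small membrane proteins that carry AMPA type glutamate receptors to synapses rather than gate calcium channels. Of the 6 TARP genes, 1 was called, in 1 comparison and with slide as a block. Cacng3 had naive levels of 0.43, -0.05, -0.69, 0.77 and 1.27, susceptible mice ran from 0.32 to 1.31 with a median of 0.69, and resilient mice were at 0.72, 0.54 and 0.83. The naive range covered nearly every defeated mouse, with the high naive values on slide 3. All defeated against naive differed by 0.40 ± 0.28 (adjusted p = 0.374), and Cacng3 rose by 0.58 ± 0.17 with slide as a block (adjusted p = 0.0339). Without naive mouse 3 the unblocked difference was 0.14 (adjusted p = 0.782), and the blocked call held in 7 of 14 fits that each left out 1 mouse.

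Cacng2, which encodes stargazin and had the brightest probe of the TARPs, had naive levels of 2.91, 2.92, 3.22, 3.09 and 3.06. Susceptible mice ran from 2.80 to 3.12 with a median of 2.88 and resilient mice were at 2.75, 2.76 and 3.24, so the groups overlapped. All defeated against naive differed by -0.12 (-0.35 to 0.10). Cacng4 had an interval of -0.57 to 1.19 around 0.31, with naive mouse 3 at -4.70, not above background, and the other naive mice between -2.58 and -1.77. Cacng5, Cacng7 and Cacng8 differed by 0.32, -0.03 and 0.09.

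The remaining gamma genes belong to the muscle type. Cacng1, a subunit of the skeletal muscle calcium channel, was above background on 0 of 14 arrays. Cacng6 had naive levels of -0.75, -1.08, -1.10, -0.89 and -0.73, susceptible levels from -1.36 to -0.64 with a median of -1.07, and resilient levels of -0.85, -0.78 and -0.94. It was among the 4 channel genes of smallest p in susceptible against resilient, at -0.21 (-0.53 to 0.12).

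Sodium channel pores gave 1 call, Scn4a, in 1 comparison and with slide as a block. Scn4a, known as the skeletal muscle pore, had naive levels of -1.08, -1.03, -1.11, -1.37 and -1.06. In susceptible mice the levels ran from -1.74 to -1.24 with a median of -1.46, and resilient mice were at -1.38, -1.18 and -1.32. All susceptible mice lay below 4 of the 5 naive mice, and below every naive mouse of their own slide. Susceptible against naive differed by -0.32 ± 0.10 (adjusted p = 0.0969), and with slide as a block Scn4a fell by 0.32 ± 0.10 (adjusted p = 0.0456).

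Of the 5 skeletal muscle markers, 1 was above background on all arrays, and Ckm on 0. Their summed linear level was 0.959 to 1.34 in naive, 1.00 to 1.35 in susceptible and 1.15 to 1.23 in resilient mice.

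The pores that carry most sodium current in cortex were not called by their brightest probes. Scn2a, the pore of excitatory axons, had the brightest probe of the role, with naive levels of 4.93, 4.95, 5.07, 4.27 and 4.45. The susceptible mice lay between 4.38 and 4.58 with a median of 4.52 and resilient mice were at 4.56, 4.39 and 4.58. On slides 1 and 2 the naive mice were above every defeated mouse, and on slide 3 both naive mice lay below the higher of the 2 susceptible mice. All defeated against naive differed by -0.23 (-0.50 to 0.04), and by -0.29 ± 0.10 with slide as a block (adjusted p = 0.0561).

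Scn8a, the main pore of mature axon initial segments, differed by 0.11 (-0.16 to 0.37) in all defeated against naive. Scn1a, the pore that inhibitory cells depend on, differed by 0.01 (-0.32 to 0.34), and Scn3a, the pore of the developing brain, by -0.21 (-0.41 to 0.00) with an adjusted p of 0.175. Scn11a, a pore of sensory nerves, differed by -0.02 (-0.26 to 0.22) and was above background on 10 of 14 arrays.

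Scn7a and Scn10a were near background and were not tested. Scn7a, which encodes an atypical sodium channel sensing extracellular sodium, was above background on 0 of 5 naive, 3 of 6 susceptible and 2 of 3 resilient arrays. Its resilient levels were -2.723, -4.045 and -1.636, the second of them not well above background. The naive levels, none of them well above background, ran from -4.863 to -3.954. Scn10a was above background on 0 naive, 2 susceptible and 1 resilient arrays. No fold difference is given for either gene, because signals below background do not set a firm limit.

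Sodium channel beta subunits, which shape gating and adhesion, went both ways. Scn2b had naive levels of 4.30, 4.19, 4.43, 4.72 and 4.73. Susceptible mice ran from 4.64 to 4.95 with a median of 4.81, and resilient mice were at 4.81, 4.78 and 4.70. Within every slide each defeated mouse lay above each naive mouse, with mean differences of 0.46, 0.43 and 0.14. Scn2b was 1 of the 6 channel genes with such a separation. The share of all genes is not given for it, so it cannot be read as particular to channel genes. All defeated against naive differed by 0.30 ± 0.11 (adjusted p = 0.0883), and Scn2b rose by 0.36 ± 0.09 with slide as a block (adjusted p = 0.0177).

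Scn4b, which encodes the beta subunit linked to resurgent sodium current, had naive levels of 0.11, 0.07, 0.05, -0.12 and -0.31. In susceptible mice the levels ran from -0.68 to -0.07 with a median of -0.25, and resilient mice were at -0.22, 0.13 and -0.18. Each susceptible mouse lay below each naive mouse of its slide, while 1 resilient mouse lay above all naive mice. Susceptible against naive differed by -0.27 ± 0.13 (adjusted p = 0.228), and Scn4b fell by 0.30 ± 0.08 with slide as a block (adjusted p = 0.0314).

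Striatum is rich in Scn4b, and the 8 striatal markers summed to 20.2 to 26.3 in naive, 26.8 to 29.5 in susceptible and 20.5 to 32.1 in resilient mice. Their part in the Scn4b values was not tested.

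**Figure D2:**
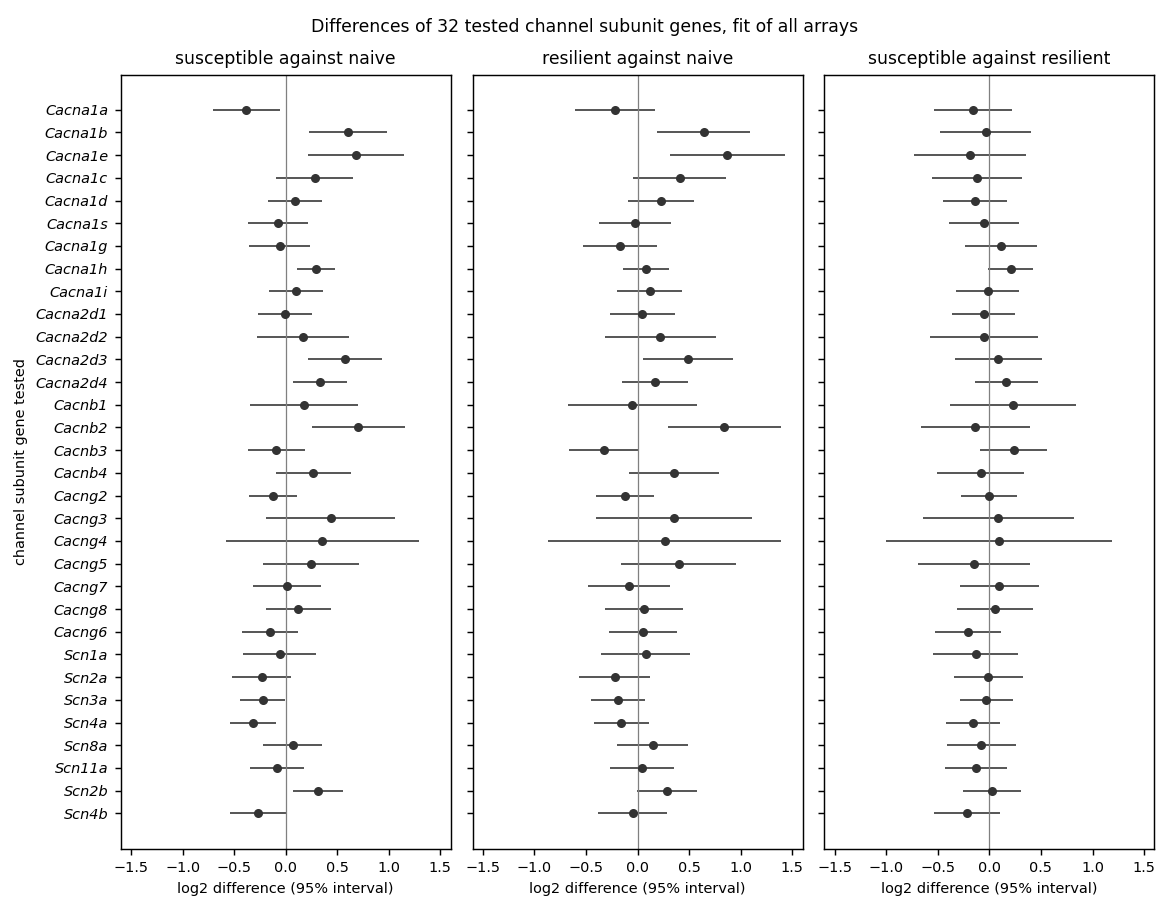
Log2 differences with 95% intervals (bars) of 32 of the 34 tested channel genes, by role from calcium channel pores at the top to sodium channel beta subunits at the bottom, from the limma fit of all 14 arrays without a block. Cacnb2 lay at 0.70 and 0.84 against naive mice and at -0.14 between the defeated classes, with an interval of -0.67 to 0.39.

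Between susceptible and resilient mice the 34 intervals all held 0. The differences were 0.24 (-0.09 to 0.56) for Cacnb3 and 0.23 (-0.38 to 0.84) for Cacnb1, the latter -0.07 with slide as a block. The intervals for the called genes were -0.67 to 0.39 for Cacnb2, -0.73 to 0.36 for Cacna1e and -0.48 to 0.40 for Cacna1b, wide enough to hold differences as large as several of those from naive mice.

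Within every slide that held both groups, 9 of the 34 channel genes (26.5%) separated all susceptible from all naive mice, where 17.1% of all genes did. Over all arrays together 0 channel genes separated all defeated from all naive mice, where 2.91% of all genes did. The median difference of the 34 was 0.11 in all defeated against naive, 0.09 in susceptible and 0.10 in resilient against naive, where the median over all genes was 0.02 in each. Positive differences made up 64.7%, 58.8% and 67.6% of the channel genes and 53.6%, 53.8% and 53.1% of all genes. In susceptible against resilient the medians were -0.04 and 0.01. By role, 2 of 3 P/Q, N and R type pores and 1 of 4 calcium channel beta subunits were called in all defeated against naive, and 0 in the other roles. Those 2 pores, Cacna1e and Cacna1b, had entered the test only through the defeated groups.

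**Figure D3:**
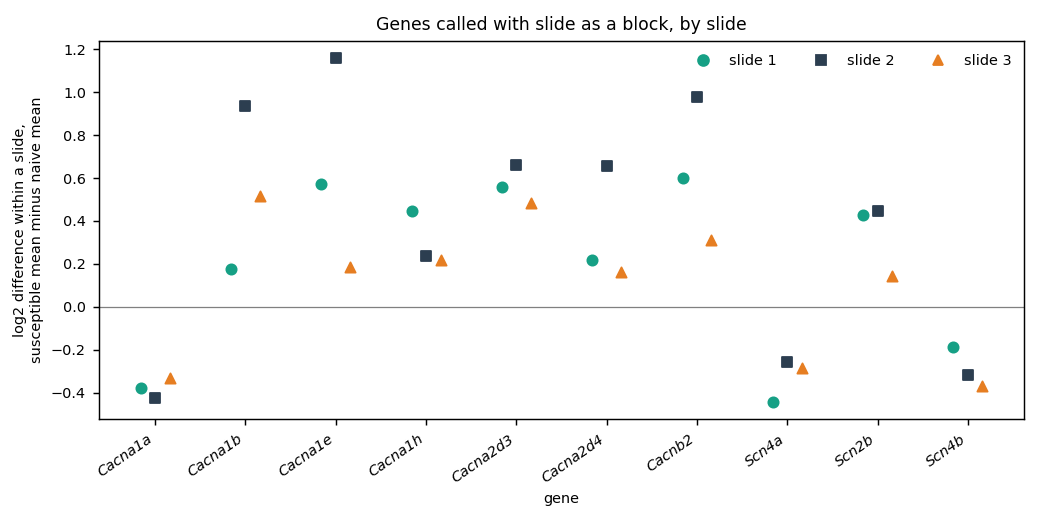
Difference between the susceptible mean and the naive mean within each slide, in log2 units, for the 10 channel genes called in susceptible against naive with slide as a block; each point is 1 slide. Each gene kept 1 sign on all 3 slides, and Cacna1e ranged from 0.19 on slide 3 to 1.16 on slide 2.

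Further probes of the same genes gave a different picture from the brightest probes. Of the 38 genes, 14 had several probes, and 14 of the 17 further probes could be tested. When every probe of every gene was tested on its own (18826 probes, limma), 5 of these 14 were called in all defeated against naive, and 7 with slide as a block. The share of all probes called in this fit was not taken, so these counts cannot be read as particular to channel genes. By gene, 7.44% and 20.2% of all genes were called in this comparison without and with the block. In susceptible against naive 2 were called, and in resilient against naive 0. Only the second probe of Cacnb2 repeated a call of its brightest probe, at 0.93 ± 0.27 (adjusted p = 0.0428). On naive mouse 3 this probe lay at -3.63, not well above background, and without that mouse the difference was 0.62 (adjusted p = 0.0718).

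The third probe of Scn8a read -1.97, -2.60, -3.37, -2.32 and -2.15 in naive mice, the third of them not well above background. The susceptible mice lay between -2.12 and -1.12 with a median of -1.24, and resilient mice were at -1.12, -1.33 and -1.73. All but 1 of the 9 defeated mice lay above every naive mouse. This probe rose by 1.06 ± 0.23 (adjusted p = 0.0202), the second by 0.65 ± 0.21 short of the threshold (adjusted p = 0.0654), and the brightest differed by 0.11.

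For Scn2a the brightest and the dimmer probes had opposite signs. The second probe read 2.63, 2.24, 2.59, 2.46 and 2.56 in naive mice, 2.48 to 2.91 with a median of 2.84 in susceptible mice, and 2.97, 2.92 and 2.90 in resilient mice. All but 1 defeated mouse lay above every naive mouse. This probe rose by 0.37 ± 0.10 (adjusted p = 0.0328) and the third differed by 0.55 ± 0.17 (adjusted p = 0.0608), beside -0.23 for the brightest.

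Cacna1i showed the reverse. Its second probe read 1.17, 1.29, 1.65, 0.40 and 0.37 in naive mice, -0.34 to 0.42 with a median of -0.01 in susceptible mice, and 0.18, -0.25 and -0.06 in resilient mice. Naive mice of slides 1 and 2 were far above all defeated mice, and those of slide 3 stood just at the top of the defeated range. This probe fell by 0.98 ± 0.22 (adjusted p = 0.0202), beside 0.11 for the brightest. The second probe of Cacna2d1 rose by 0.54 ± 0.15 (adjusted p = 0.0396), beside 0.02.

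Leaving out 1 mouse at a time in the fit of all probes kept the call of the third Scn8a probe in 13 of 14 fits and that of the Cacna1i probe in 11. The second Scn2a and Cacna2d1 probes kept theirs in 5 each, and the second Cacnb2 probe in 3. Without naive mouse 3 the third Scn8a probe was still called, at 0.84 (adjusted p = 0.0455). The adjusted p was then 0.0516 for the Cacna1i probe at -0.81, 0.0549 for the second Scn2a probe at 0.39 and 0.0852 for the Cacna2d1 probe at 0.53.

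**Figure D4:**
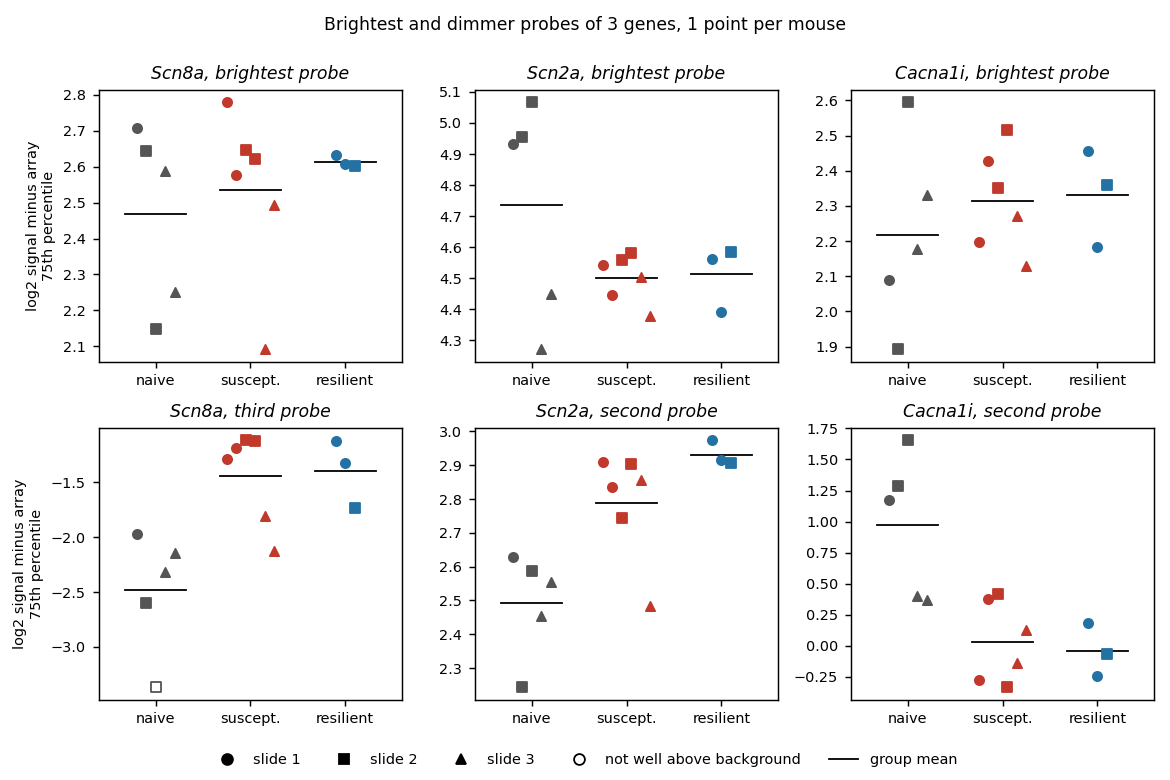
Levels by mouse of the brightest probe (top row) and a dimmer probe (bottom row) of Scn8a, Scn2a and Cacna1i; levels are log2 signal minus the array's 75th percentile, the shape gives the slide, the open point was not well above background and lines are group means. By group mean, the dimmer probes of Scn8a and Scn2a lay higher, and that of Cacna1i lower, in both defeated groups than in naive mice. Defeated and naive mice overlapped in every panel.

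Whether 2 probes of a gene moved unequally was tested on their log2 ratio within each array, which no scaling of whole arrays can alter. A two-sided exact permutation test over the 14 mice compared defeated with naive mice for the 14 ratios, with Benjamini-Hochberg adjustment over them. This test was chosen after the probe values were seen. In 8 ratios, from 6 genes, defeated and naive mice differed at adjusted p under 0.05. Only channel genes were tested in this way. How often probe ratios of other genes differ was not tested, so the count cannot be read as particular to channel genes. The dimmer probe was higher relative to the brightest in 7 and lower in 1.

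The ratio for the third Scn8a probe differed by 0.96 and that for the second Scn2a probe by 0.57, each with an adjusted p of 0.0028 from the exact permutation test. The Cacna1i ratio differed by -1.07, the third Scn2a ratio by 0.75 and the Scn1a ratio by 0.58, with the same adjusted p. In the third Scn2a ratio all 9 defeated mice lay above all naive mice, and in the other 4 it was 8 of 9 beyond the naive range.

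Cacna1g differed by 0.39 (exact permutation test, adjusted p = 0.00816), Cacna2d1 by 0.50 (adjusted p = 0.0260) and the second Scn8a probe by 0.51 (adjusted p = 0.0385). With mice permuted within slides, 6 of the 8 passed, and those of Cacna2d1 and the second Scn8a probe had an adjusted p of 0.0519. Without naive mouse 3 the Cacna1g ratio was 0.22 and the Scn1a ratio 0.35, and without naive mouse 4 the second Scn8a probe had an unadjusted exact p of 0.0518.

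These 8 ratios were nearer 0 on slide 3 than on slides 1 and 2. For the third Scn8a probe they were 0.80, 1.43 and 0.39 on slides 1, 2 and 3, for the Cacna1i probe -1.39, -1.63 and -0.33, and for the second Scn2a probe 0.73, 0.87 and 0.08. On slide 3 the Cacna2d1 and second Scn8a ratios were -0.17 and -0.01. With normexp background correction the third Scn8a ratio was 0.35 (adjusted p = 0.0252) and the Scn1a ratio 0.26 (adjusted p = 0.0962), while the Cacna1i ratio was -0.96 and the second Scn2a ratio 0.53. The part of array brightness was not tested, and the place of each probe on its transcript was not used here.

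**Figure D5:**
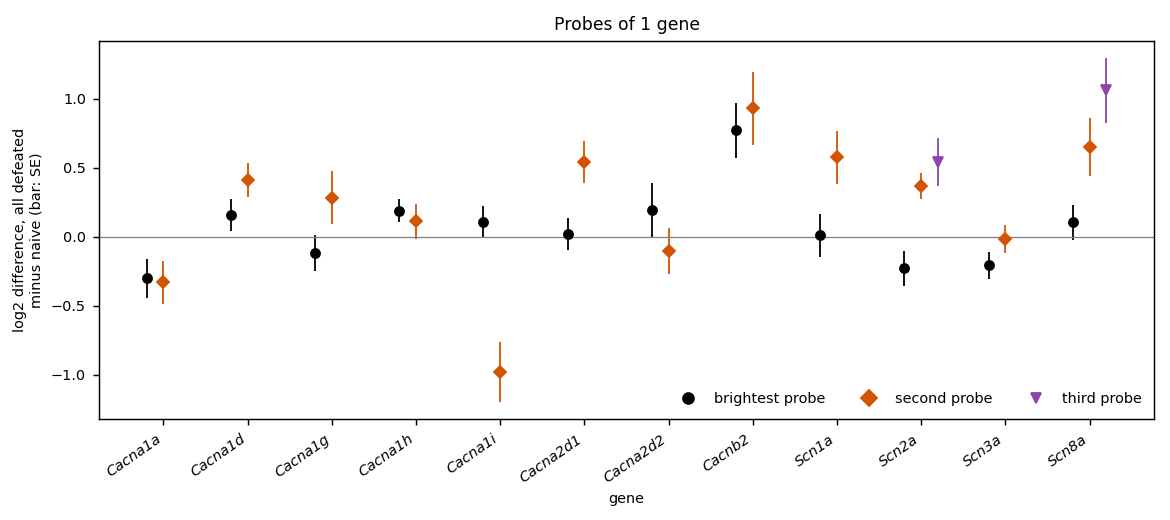
Difference between all defeated and naive mice (log2, bars are SE) for each tested probe of the 12 channel genes with several tested probes, from the limma fit of all probes without a block. Both Cacnb2 probes lay at 0.77 and 0.93 and both Cacna1a probes at -0.30 and -0.33, while Cacna1i lay at 0.11 and -0.98 and Scn8a at 0.11, 0.65 and 1.06.

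Partners that anchor or regulate these channels were taken from a list of 31 genes, of which 28 were tested. In all defeated against naive 1 was called higher and 0 lower, 3.57% against 7.44% of all genes. Nfasc, which encodes the neurofascin that holds sodium channels at the axon initial segment and node, rose by 0.52 ± 0.12 (adjusted p = 0.0281). Unc80, a subunit of the NALCN sodium leak channel, differed by -0.33 ± 0.10 (adjusted p = 0.0510). In susceptible against naive and in resilient against naive 0 partners were called, with 5 and 3 at unadjusted p under 0.05.

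With slide as a block 4 partners were called in susceptible against naive and 4 in all defeated against naive. In both, Nfasc and Cabp1, a calcium-binding regulator of calcium channels, were higher, and Unc80 and Tmem28 were lower. In resilient against naive 0 were called with the block, with 10 at unadjusted p under 0.05. Ank3, the ankyrin that gathers sodium channels at the initial segment, differed by 0.17 ± 0.14 in all defeated against naive without the block.

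Leaving out single mice ended the calls without a block. Without naive mouse 2 or 3, resilient mouse 1 or 2, or susceptible mouse 4, 0 channel genes were called in all defeated against naive. Without naive mouse 4, resilient mouse 3, or susceptible mouse 1, 2 or 3, 1 was called, and without any of the other 4 mice 3 were. Over these 14 fits Cacnb2 was called in 3, Cacna1e in 6 and Cacna1b in 5, with the sign kept in each. Cacna2d3, not called in the fit of all mice, was called in 3. In susceptible against naive 1 channel gene was called without naive mouse 5 and 2 without susceptible mouse 6.

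Single mice also decided most calls made with slide as a block. In susceptible against naive, Cacna2d3 and Cacnb2 were called in all 14 fits that each left out 1 mouse, Cacna1h and Scn2b in 9, Scn4b in 8 and Cacna1b in 7. Cacna1e was called in 4 of them, Scn4a in 3, Cacna2d4 in 2 and Cacna1a in 1. In all defeated against naive, Cacna2d3 was called in 14, Cacnb2 in 13, Scn2b in 12, Cacna1b in 9, Cacng3 in 7, Cacna1e in 5 and Scn4b in 4.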

How the data were processed

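Agilent arrays were hybridised in 1 colour (Cy3) with 35 ng RNA each. Linear spot intensity was deposited as written by Agilent Feature Extraction 11.0.1.1, per the file headers, with background subtracted and no scaling across arrays. The authors also deposited log2 values that correlated at 1 with the scanner log2 signal and are centred on each array's 75th percentile, and these were used as an alternative. Control spots (3671 of 62976) and outlier spots were left out, and spots of a probe were averaged, giving 55681 probes. Of these 27503 were named through GRCm38.p6 RefSeq transcripts. Levels are log2 processed signal minus the 75th percentile. A gene was tested if its brightest probe cleared background on every array of 1 or more groups: 14446 passed, less 5 with outlier spots. One limma fit (3.58.1, R 4.3.3; lmFit, eBayes) of 3 groups and 14 arrays was made with no covariate. p-values were adjusted by Benjamini-Hochberg, with calls at 0.05.

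Per-mouse values are given for channel genes called with or without slide as a block, the 4 of smallest p in each comparison and the brightest of each role. Brightness only chose probes, and levels of different probes are not compared. The channel genes and lists were chosen with earlier results of these data known. On simulated data, 42.9%, 88.2% and 99.0% of genes changed by 0.5, 1 and 2 log2 units were recovered in all defeated against naive (14441 genes). At 0.5 log2 units 36.4% were recovered in susceptible and 22.3% in resilient against naive. The simulated noise was independent between arrays and held no slide, scan day or brightness differences, so recovery in the real arrays may differ. The number of arrays limits the precision. Nothing in the labels says that mouse numbers pair groups. Values of 2 of the 34 tested channel genes are not reported here, and both stay in the counts and medians. Alternatives are given at the end.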

Additional observations from a re-analysis of the deposited data

Results flagged for a closer look

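Among the 11 channel genes called in any fit, the 22 naive and susceptible groups were searched for a mouse lying far from the others by Dixon's test, which marks about 1 in 20 groups by chance. It marked 2. For Cacna2d4 the highest naive mouse, naive mouse 5, lay at -2.61, while the other naive mice lay between -3.18 and -3.05. For Scn4a the lowest naive mouse, naive mouse 4, lay at -1.37, while the others lay between -1.11 and -1.03.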

How the results depend on the processing

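Calls of channel genes are given as susceptible against naive, resilient against naive and all defeated against naive, beside 0, 0 and 3. They were 2, 0 and 5 with quantile normalisation, 3, 0 and 5 with normexp background correction, 0, 0 and 0 with no filter on dim probes, and 1, 0 and 4 with the mean of probes. They were 10, 1 and 7 with slide as a block, 7, 0 and 5 with slide as a random block, 9, 4 and 11 with scan day as a block and 8, 6 and 9 on the arrays of scan day 1 alone, a choice made after the data were seen. With slide as a block 20.2% of all genes were called in all defeated against naive, beside 7.44% without. Shares of all genes are not given for the other settings, so their counts cannot be read as particular to channel genes. The replicate block gave 3, 1 and 5; of 11 same-numbered pairs 8 correlated above 0.1 (range -0.38 to 0.71) and 7 of 13 arrays matched their own number best, so the numbers were not taken as pairs. Genes above background on all arrays (2 in all defeated), the authors' values, single probes, trend and robust settings, and fits of the groups compared alone kept the counts within 1.5 times. The first of these settings left Cacna1b and Cacna1e, above background on 13 arrays, untested. At least 1 of its 2 calls was therefore a gene not called in the main fit. Susceptible against resilient gave 0 in each (limma, unadjusted p under 0.05 for 0 in the fit without a block). Leaving out 1 mouse gave 0 to 2, 0 to 0 and 0 to 3, and 0 to 0 between the classes; with slide as a block, 2 to 9, 0 to 2 and 1 to 9. No difference called in either of the 2 fits compared changed sign. Differences that were not called did: with slide as a block, 1, 8 and 4 of the 34 changed sign in these comparisons and 13 between the classes. Cacng8 went from 0.09 to -0.036 and Scn1a from 0.01 to -0.15 in all defeated against naive, and Cacnb1 from 0.23 to -0.066 and Cacnb2 from -0.14 to 0.11 in susceptible against resilient. With the mean of probes, Cacna1i was -0.44, Scn2a 0.23 and Scn3a 0.085 in all defeated against naive. The Cacna1a probe ratio, not called, was 0.064 with normexp and -0.016 without. The cause of these shifts was not tested.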
